A study of Mus musculus with 2 samples.

Results

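The cyclins, cyclin-dependent kinases (CDKs), CDK inhibitors, E2F transcription factors and minichromosome maintenance (MCM) genes were examined in mature hepatocytes (MHs) and in Sox9+EpCAM- cells of the mouse liver. Members were chosen by symbol in the array design. They are cyclins A, B, D, E and G, every gene named Cdk with a number, the Cdkn1 and Cdkn2 genes, the E2f and Mcm genes, and Mki67, Top2a, Pcna, Aurka, Aurkb, Plk1, Plk2 and Plk3. This gave 62 of 30175 gene names, with 92 of 39429 probes and 110 of 43020 spots.

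The study searched for markers of biphenotypic hepatocytes, which carry features of hepatocytes and of bile duct cells. MHs were purified on a Percoll gradient from healthy livers, and Sox9+EpCAM- cells were sorted by FACS as GFP+EpCAM- cells from livers of mice on a diet with DDC, a dihydro-collidine compound that injures the bile ducts. Per the methods, both livers came from Sox9-EGFP mice, in which GFP marks cells that use the Sox9 promoter, and the labels call both samples male. Each group is 1 Agilent Cy3 array of 60-base probes, so no value here has a replicate and no test was possible. For the PCR of the same cell types the DDC diet lasted 2 weeks per a figure legend, which gives no length of the diet for the arrays. How many mice stand behind an array and their age are not given in the sources used here.

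Progression through the cell cycle is driven by CDKs, which act only when bound to a cyclin. Cyclin D with CDK4 or CDK6 phosphorylates the retinoblastoma protein and releases E2F factors, which switch on cyclin E and the genes of DNA replication, among them the MCM helicase. Inhibitors of the CIP/KIP and INK4 families block these kinases. Most hepatocytes of a healthy adult liver are quiescent but can re-enter the cycle after injury.

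The 2 arrays differ in more than cell type. Xist, the RNA of the inactive X chromosome, gave 1940 intensity units in MHs and 16.1, not well above background, in Sox9+EpCAM- cells. The Y-linked genes Ddx3y, Kdm5d, Uty and Eif2s3y were detected in Sox9+EpCAM- cells alone, at least 15.4-, 11.8-, 4.83- and 3.36-fold higher. The MH sample thus went against its male label, and sex, diet and the way of isolation cannot be told apart in any difference below. All 8 hepatocyte markers were detected on both arrays, and in Sox9+EpCAM- cells 5 were lower by 2-fold or more, with log2 differences from -0.23 for Hnf4a (4990 and 6360 before scaling) to -2.46 for Tat, and a summed intensity of 827315 in MHs against 620210. The 8 ductal markers summed to 2218 and 57052, of which Spp1 alone gave 258 and 47000, and 4 of the 8 were at least 2-fold higher, while Cftr, with 69.6 and 52.1, was just over 2-fold lower after scaling. Epcam, on whose absence the cells were sorted, was 13.3-fold higher in Sox9+EpCAM- cells. Sox9 itself had 8.87 and 60.7, at least 1.45-fold higher, and the duct keratins Krt7 and Krt19 had log2 differences of -0.23 and 0.42. Of the other markers, 7 of 10 leukocyte genes, 4 of 6 endothelial genes and 2 of 5 erythroid genes were at least 2-fold lower, whereas the 8 mesenchymal genes were mixed. Col1a1, Col1a2 and Col3a1 were 15.4-fold or more higher, Lrat was at least 7.70-fold lower, Dcn, Des and Acta2 had log2 differences of 0.31, 0.09 and 0.42, and Pdgfrb was not well above background on either array. All 10 immediate early genes, which respond to stress and to dissociation of a tissue, were at least 4-fold higher, with a median log2 difference of 4.58. The part that these cells and this response have in the differences below was not tested, and in such bulk samples fewer cells of a type and less RNA per cell cannot be told apart.

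Subunits of the MCM helicase ran from one not well above background on either array to one 11.4-fold higher in Sox9+EpCAM- cells, so start regions are shown for the 4 subunits that had signal and a window. Mcm4 was not matched. The RefSeq promoter table (GRCm38.p6) holds 58 windows for 50 of the 62 members, each of 300 bases from 250 before to 50 after an annotated start. Capitals mark the E2F letters searched on both strands, TTTCCCGC, TTTCGCGC, TTTGCCGC and TTTGGCGC, which may overlap each other.
Mcm2, chr6:88898731-88899030, minus strand: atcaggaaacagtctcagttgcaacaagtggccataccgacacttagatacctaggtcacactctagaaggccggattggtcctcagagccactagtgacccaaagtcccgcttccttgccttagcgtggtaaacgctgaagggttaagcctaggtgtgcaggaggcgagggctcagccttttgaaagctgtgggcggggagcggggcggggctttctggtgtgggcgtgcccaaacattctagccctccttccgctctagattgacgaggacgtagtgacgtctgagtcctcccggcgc
Mcm7, chr5:138171834-138172133, minus strand: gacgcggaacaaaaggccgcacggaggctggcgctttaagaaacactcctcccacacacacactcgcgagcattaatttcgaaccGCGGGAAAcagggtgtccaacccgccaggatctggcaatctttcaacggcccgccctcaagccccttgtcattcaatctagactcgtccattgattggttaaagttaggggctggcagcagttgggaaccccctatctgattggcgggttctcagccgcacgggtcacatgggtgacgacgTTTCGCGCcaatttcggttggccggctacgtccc
Mcm3, chr1:20820263-20820562, minus strand: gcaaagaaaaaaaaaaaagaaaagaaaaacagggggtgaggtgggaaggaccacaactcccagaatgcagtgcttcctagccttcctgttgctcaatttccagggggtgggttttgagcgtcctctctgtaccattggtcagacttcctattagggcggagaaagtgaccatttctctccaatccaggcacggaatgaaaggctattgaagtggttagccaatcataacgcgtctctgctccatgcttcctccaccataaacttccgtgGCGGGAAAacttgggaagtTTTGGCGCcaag
Mcm6, chr1:128359656-128359955, minus strand: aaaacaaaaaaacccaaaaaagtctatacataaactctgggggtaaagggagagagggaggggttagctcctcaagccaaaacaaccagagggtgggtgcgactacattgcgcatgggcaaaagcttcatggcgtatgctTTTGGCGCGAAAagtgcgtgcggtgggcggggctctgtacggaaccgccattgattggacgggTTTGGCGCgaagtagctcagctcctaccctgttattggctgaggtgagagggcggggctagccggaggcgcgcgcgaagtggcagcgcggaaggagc
These letters were present in 744 of 32851 windows of all genes (2.26%) and in 11 of the 58 windows of the members (19.0%), each of a different gene. Mcm3 held 2 matches and Mcm6 held 3, and Mcm5, which had no signal and is not shown, held 2. The window of Mcm2 held none. Of the 2 windows of Mcm7, the one shown held 2 and the other none. Cdk1, Cdk2, Cdkn2a, E2f2, E2f3, E2f7 and Mcm8 held 1 match each. The CHR letters TTTGAA, known from promoters of mitotic genes, were in 17.9% of all windows and in 12 of the 58 member windows (20.7%), a share near that of all windows. They are those of Cdk1, Ccnb2, Plk1, Aurka, Mki67, Top2a, Cdk16, Cdkn2b, E2f2, E2f3, E2f8 and Mcm2. A match is a run of letters and not a measured site, and the binding of E2F was not measured.

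Intensities are given below as deposited, first for MHs and then for Sox9+EpCAM- cells. The log2 differences are Sox9+EpCAM- minus MH after each array was divided by its 75th percentile of intensity, 741 in MHs and 1110 in Sox9+EpCAM- cells, so equal intensities give a difference below 0. A gene is represented by its brightest probe. Where a probe was not well above background in MHs, the fold is a lower bound, taken against 27.8, the dimmest intensity that was, or against the probe's own signal if that was brighter. For a probe seen in MHs alone the same was done with 18.4. The intensities of different genes come from different probes and do not rank their transcripts, so that brightest refers below to the signal of a probe only.

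Of the 62 members, 41 were well above background on both arrays, 10 in Sox9+EpCAM- cells alone and none in MHs alone. Detection in Sox9+EpCAM- cells alone thus held for 19.6% of the members with signal, beside 15.4% of all genes with signal. Detection in MHs alone held for 0% and 2.44%. Of the 51 members with signal, 18 were at least 2-fold higher and 6 lower by 2-fold or more in Sox9+EpCAM- cells. A further 2, Cdkn2a and Top2a, had no fold. Over the 23417 genes with signal, 14.2% were at least 2-fold higher and 16.7% at least 2-fold lower, against 35.3% and 11.8% of the members. The counts by role below stand beside these shares of all genes, and with 1 to 8 genes with signal in a role they are descriptions only. At 4-fold, 9 members were higher and 2 lower, beside 5.59% and 5.57% of all genes. The median log2 difference was 0.17 for the members and -0.04 for all genes. Among the 41 members measured on both arrays, 20 were above 0 and 21 below, with a median of -0.00, where all such genes had a median of -0.19. The higher share therefore owes 7 of its 18 genes to bounds: without them, 11 of 41 were at least 2-fold higher (26.8%) and 6 lower (14.6%), beside 11.8% and 17.4% of the 19232 genes measured on both arrays. The scanner's error model gave each of the 41 differences an error of 0.20 to 0.35 on the log2 scale, and 32 of the 41 were larger than theirs. This error covers 1 spot of 1 hybridisation and not the spread between mice.

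**Figure D1:**
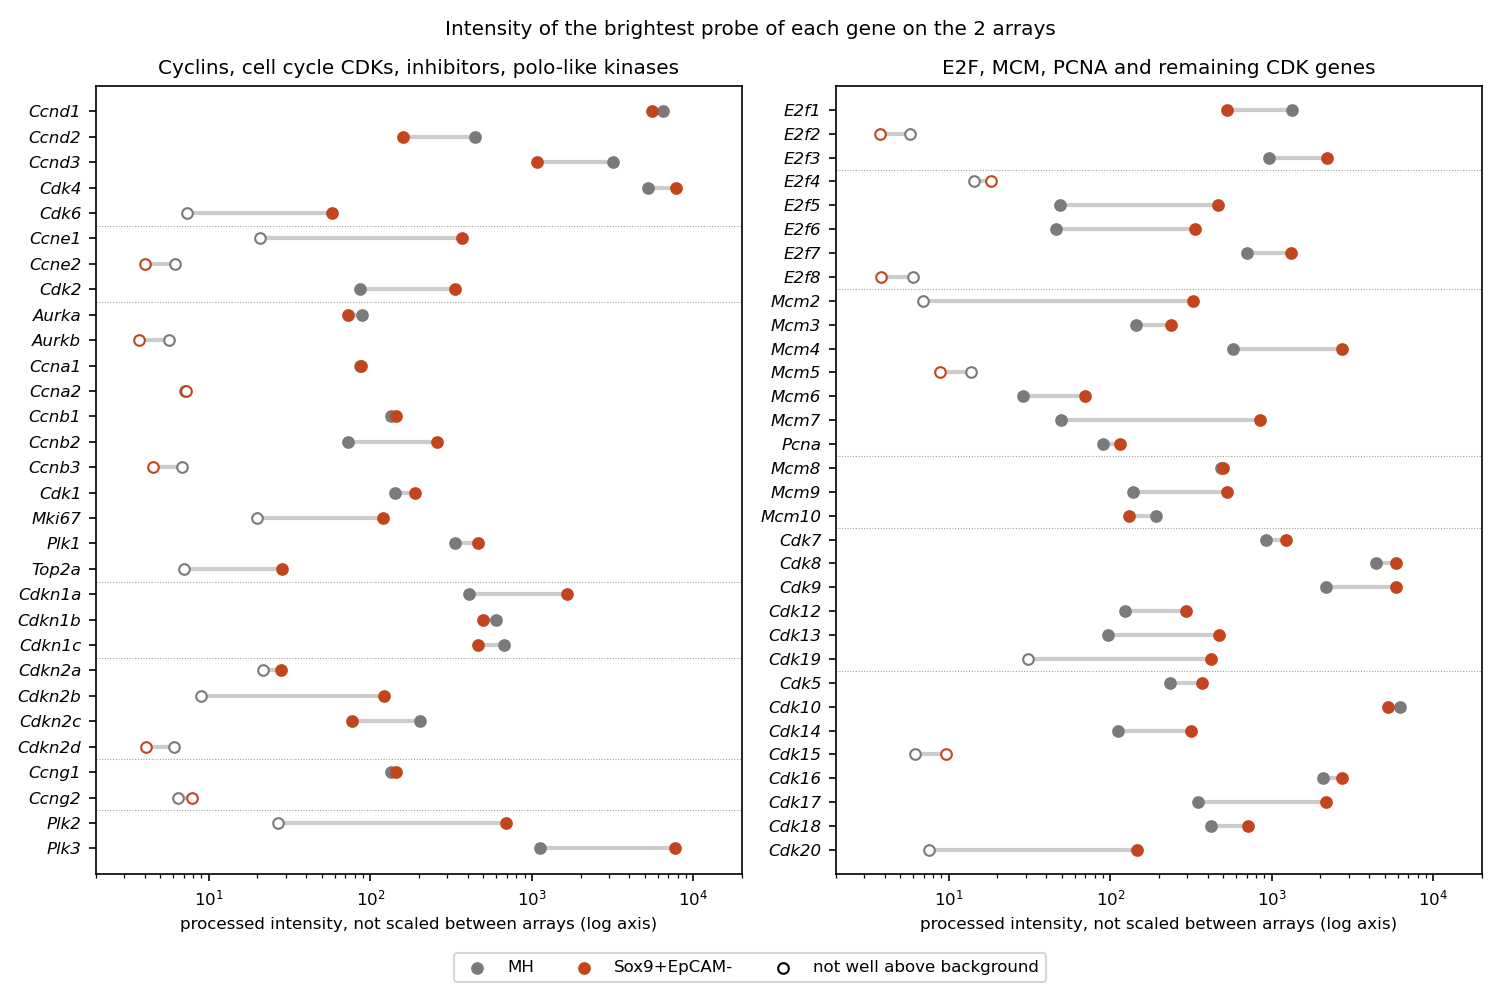
Processed intensity (x axis, log scale, not scaled between arrays) of the brightest probe of each of the 62 members in MHs (grey) and Sox9+EpCAM- cells (red), with open symbols where the probe was not well above background and dotted lines between roles. Bars that start at an open grey symbol, such as those of Mcm2, Plk2 and Cdk20, have no measured length, since the MH signal there is not well above background, and the 11 genes with 2 open symbols were not well above background on either array.

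Of the D-type cyclins, which drive G1, Ccnd2 and Ccnd3 were lower by 2-fold or more in Sox9+EpCAM- cells and Ccnd1 was under 2-fold. Ccnd2 had 444 and 160, a 4.16-fold lower level (log2 -2.06, error 0.21). Ccnd3 had 3180 and 1080, 4.41-fold lower, and its other probe gave 844 and 618, 2.05-fold lower. Both probes of Ccnd3 thus pointed the same way, while their sizes differed by more than 2-fold. Ccnd1, the brightest D cyclin, had 6440 and 5580, a log2 difference of -0.79 that stayed between -0.97 and -0.48 over the other settings. Of the kinase partners of cyclin D, Cdk4 had 5220 and 7800, a log2 difference of -0.00, and its other probes gave -0.31 and 0.39. Cdk6 was detected in Sox9+EpCAM- cells alone, with 7.31 and 57.6, at least 1.38-fold higher.

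Both measured genes of the G1/S step were higher. Ccne1, the cyclin that binds CDK2 at S-phase entry, had 20.6 in MHs, not well above background, and 371 in Sox9+EpCAM- cells, at least 8.91-fold higher. Its other probe gave 18.2 and 53.5, at least 1.28-fold higher, and since both are lower bounds their sizes cannot be compared. Cdk2 had 86.8 and 332, 2.55-fold higher (log2 1.35, error 0.23). Ccne2 was not well above background on either array, with 6.17 and 4. With normexp background correction the difference of Cdk2 was 0.84, and that of Ccne1 at least 1.66.

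Of the 8 genes of S phase and mitosis with signal, 2 were at least 2-fold higher, 5 lay between and 1, Top2a, had no fold. Cdk1, the mitotic kinase, had 142 and 189, a log2 difference of -0.17. Its other 2 probes were not well above background on either array. Ccnb1, the main cyclin partner of CDK1, had 135 and 144 (-0.49), and 2 of its 3 probes were likewise not well above background. Plk1, a kinase needed for mitotic entry and the brightest of this group, had 336 and 461 (-0.13), and Aurka, which builds the spindle poles, had 89.2 and 72.9 (-0.87). None of these 4 reached 2-fold by this scaling. Ccna1, the germ-line cyclin A, was printed in 10 spots. They ran from 69.7 to 126 in MHs (median 82.8) and from 73.6 to 95.7 in Sox9+EpCAM- cells (median 88), so the spots overlapped before scaling, and the scaled difference was -0.55. Ccnb2, a second mitotic cyclin, had 72.6 and 257, 2.36-fold higher. Mki67, which encodes the Ki67 antigen of cycling cells, had 20 and 119, at least 2.86-fold higher. Its other probe had 6.64 and 34.2, and Top2a, the topoisomerase that untangles chromosomes, had 6.97 and 28.5: both were detected in Sox9+EpCAM- cells alone, but so dim that no fold could be given. Ccna2, Ccnb3 and Aurkb were not well above background on either array. Normexp correction left Ccnb2 at 0.68 on the log2 scale and the bound of Mki67 at 0.52, both under 2-fold.

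The inhibitors went in both directions. Cdkn1a, which encodes p21, was printed in 10 spots of which 9 passed the spot filter. These 9 lay between 351 and 439 in MHs (median 414) and between 1580 and 1740 in Sox9+EpCAM- cells (median 1650). The spots of the 2 arrays did not overlap, and the log2 difference was 1.43, 2.69-fold higher, with an SD between spots of 0.10 and 0.05. The spots share 1 RNA sample per array and are no replicates of the cells. This probe lies at chr17:29237377-29237436 (mm9). The probe at chr17:29235299-29235358 gave 161 and 740, 3.07-fold higher, whereas the probe with the lowest coordinates, at chr17:29227986-29228045, gave 104 and 103, a log2 difference of -0.60. RefSeq lists 2 start windows for Cdkn1a, but exons were not assigned to probes here, since no mm9 annotation was used.

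**Figure D2:**
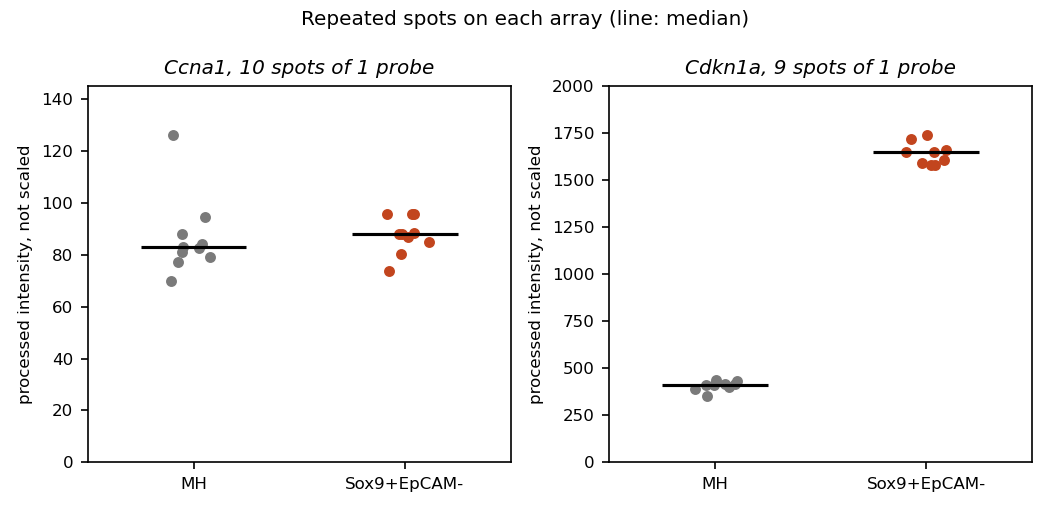
Processed intensity (y axis, not scaled) of every spot of the repeated probes of Ccna1 (10 spots) and Cdkn1a (9 spots) on each array, with the median as a line. The spots of Ccna1 overlap between arrays, and those of Cdkn1a lie at 351 to 439 in MHs and at 1580 to 1740 in Sox9+EpCAM- cells.

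Of the other CIP/KIP inhibitors, Cdkn1c (p57) had 676 and 463, 2.19-fold lower (log2 -1.13), which became -0.98 with normexp correction and -0.86 with scaling to Gapdh. Cdkn1b (p27) had 597 and 500 (-0.84), and its other probe had 586 and 358, 2.45-fold lower. Of the INK4 inhibitors, which bind CDK4 and CDK6, Cdkn2c (p18) was the brightest in MHs and had 203 and 76.8, 3.96-fold lower (log2 -1.99, error 0.23). Cdkn2b (p15) went the other way, with 8.93 and 121, at least 2.91-fold higher, and 6.54 and 113 on its other probe, at least 2.71-fold higher. Normexp correction brought the bound of the first probe to 0.45 on the log2 scale. Cdkn2a, the locus of p16 and p19Arf, had 21.6 and 27.8, above background in Sox9+EpCAM- cells alone and without a fold, and its other probe and Cdkn2d (p19) were not well above background on either array.

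Both stress-responsive polo-like kinases were at least 4-fold higher. Plk2 had 26.9 in MHs, not well above background, and 690 in Sox9+EpCAM- cells, at least 16.6-fold higher. With normexp correction its log2 difference of at least 4.05 became at least 2.38. Plk3 had 1130 and 7640, 4.51-fold higher (log2 2.17, error 0.20). Both are known as early response genes, and the 10 immediate early markers were higher as well, with Jun at 13800 and 116000 and Ier3 at 47 and 11000. Ccng1, a p53-induced cyclin, had 134 and 145 (-0.47), and Ccng2 was not well above background on either array.

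**Figure D3:**
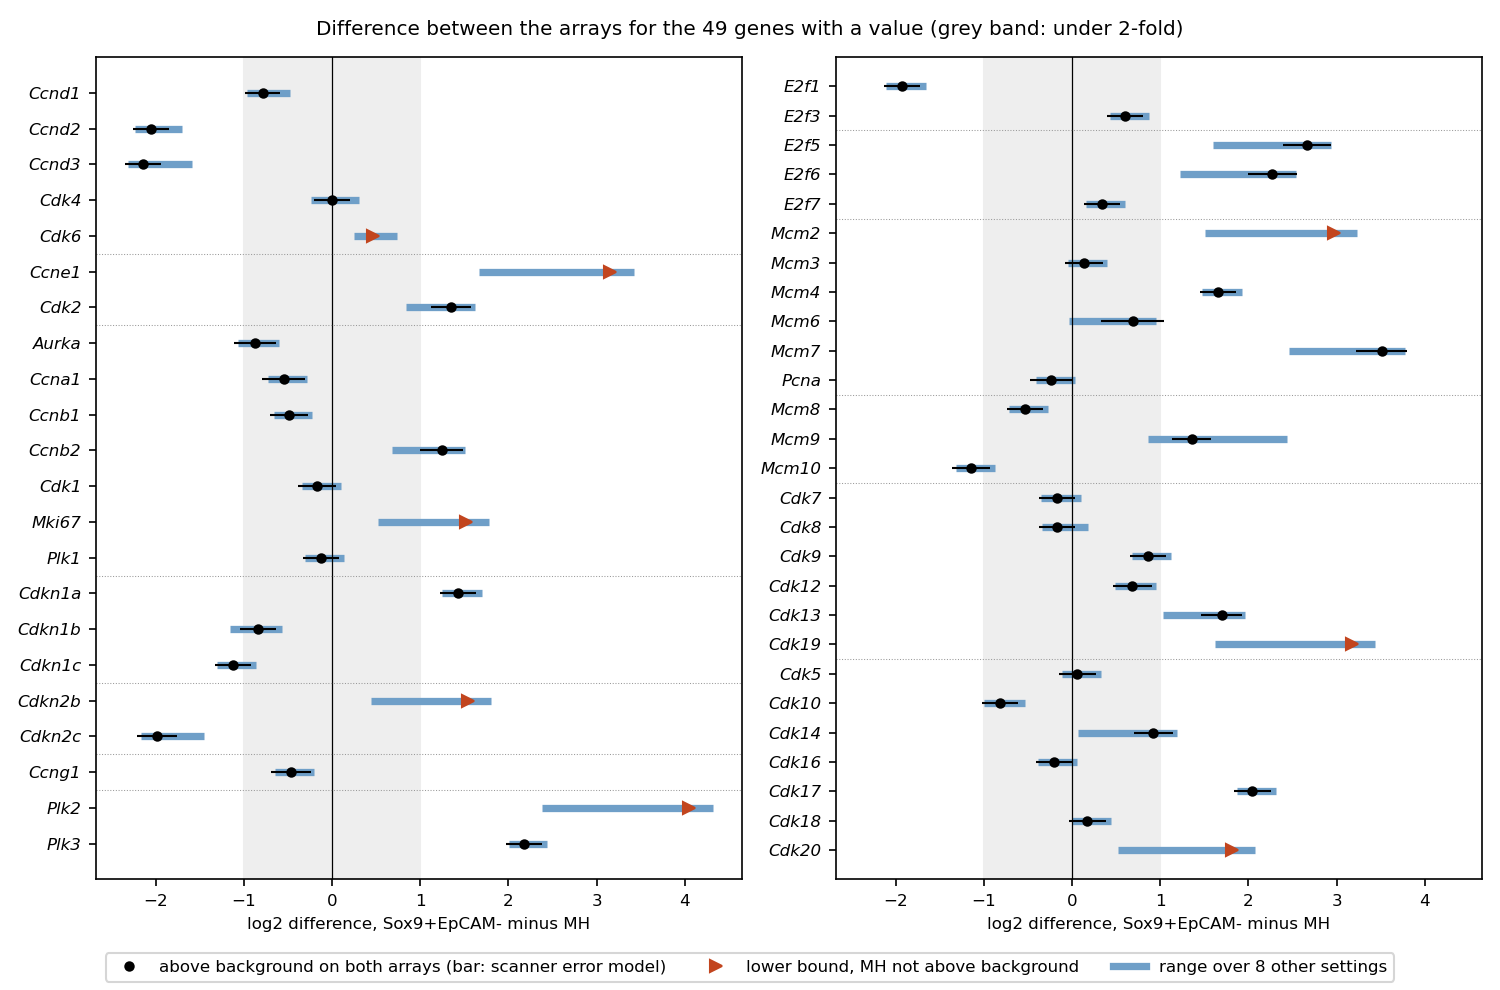
Log2 difference (x axis, Sox9+EpCAM- minus MH) of the 49 members with a value, with the scanner's error for genes above background on both arrays (black), lower bounds (red arrowheads) and the range over 8 other settings (blue). Ccnd2, Ccnd3, Cdkn2c and E2f1 lie left of the grey band of 2-fold over their whole range, and 12 genes lie right of it over theirs.

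The E2F genes split by member. E2f1, an activator of replication genes, had 1330 and 524, 3.80-fold lower (log2 -1.93, error 0.20), and was the brightest activator in MHs. E2f3 had 963 and 2190 (0.60), with a second probe not well above background on either array, and E2f2 was not well above background. Among the members known mainly as repressors, E2f5 had 48.5 and 461, 6.35-fold higher, and E2f6 had 46.4 and 335, 4.82-fold higher. E2f7, the brightest of these, had 697 and 1320 (0.34), with another probe not well above background, and E2f4 and E2f8 were not well above background on either array. E2f1 was thus at least 2-fold lower, and E2f5 and E2f6 at least 2-fold higher, in all 8 other settings. Each of these genes has a single probe in a single spot, so several settings repeat its value and are no separate checks. Normexp correction lowered E2f5 to 1.6 and E2f6 to 1.22.

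The MCM2-7 genes encode the 6 subunits of the helicase loaded at replication origins. Mcm7 had 49.4 and 844, 11.4-fold higher (log2 3.51, error 0.29). Mcm2 had 6.90, not well above background, and 326, at least 7.83-fold higher. Mcm4, the brightest subunit, had 572 and 2700, 3.15-fold higher. All 3 stayed at least 2-fold higher in every setting that gave a value, though normexp correction lowered Mcm7 to 2.46 and Mcm2 to at least 1.51 on the log2 scale. Each of the 3 has a single probe in a single spot, so several of these settings repeat its value. Of the remaining subunits, Mcm3 had 145 and 238, a log2 difference of 0.13, and -0.06 on its second probe, which overlaps the first. Mcm6 had 28.8 and 69.4 (0.69, error 0.35, and -0.03 with normexp correction), only just above background in MHs, and Mcm5 had 13.7 and 8.83, not well above background on either array. Pcna, the sliding clamp of replication, had 90.3 and 115 (-0.23).

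Of the other MCM genes, Mcm9, with a role in recombination and mismatch repair, had 138 and 529, 2.56-fold higher. Its second probe gave 40.6 and 693, 11.4-fold higher, and the median of both was 2.43 on the log2 scale. With normexp correction the first probe gave 0.86. Mcm8, its partner and the brightest of the 3 in MHs, had 485 and 501 (-0.54), with another probe not well above background. Mcm10, a factor for origin firing, had 192 and 130, 2.21-fold lower (log2 -1.15), and -0.90 with normexp correction and -0.88 with scaling to Gapdh.

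Of the 6 kinases of transcription, 2 were at least 2-fold higher and none lower, where 14.2% and 16.7% of all genes were. Cdk19, a kinase of the Mediator complex, had 31 in MHs, not well above background, and 419 in Sox9+EpCAM- cells, at least 9.02-fold higher (log2 at least 3.17, and 1.62 with normexp correction). Cdk8, its paralog and the brightest of the 6 in MHs, had 4400 and 5860 (-0.17), and 0.21 and 0.18 on its other probes. Cdk13 had 96.3 and 468, 3.24-fold higher, and 1.03 on the log2 scale with normexp correction. Cdk12, its paralog, had 123 and 296 (0.68), but its 3 probes disagreed: one gave 53 and 195, 2.46-fold higher, and another 46.6 and 24.1, 2.90-fold lower. The direction of Cdk12 therefore depended on the probe. Cdk9, which releases paused polymerase, had 2150 and 5850 (0.86), and 0.71 and -0.12 on its other probes. Cdk7, a subunit of TFIIH that also activates other CDKs, had 923 and 1230 (-0.17), with 0.10 on its second probe.

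Among the remaining CDKs, Cdk17, a PCTAIRE kinase, had 351 and 2170, 4.13-fold higher (log2 2.05, error 0.21). Cdk20 had 7.54 and 146, at least 3.51-fold higher, and at least 0.52 on the log2 scale with normexp correction. Cdk14, a partner of cyclin Y, had 112 and 318 (0.92) on a probe at chr5:4803733-4803792 (mm9), but 60.2 and 51.8 (-0.80) on another at chr5:5184603-5184662, and the remaining probe was not well above background. Cdk10, the brightest of this group in MHs, had 6170 and 5240 (-0.82), and its other probe was 2.28-fold lower. Cdk5, best known from neurons, had 235 and 367 (0.06). The other PCTAIRE kinases were under 2-fold, Cdk16 with 2080 and 2700 (-0.21) and Cdk18 with 419 and 708 (0.17). Cdk15 was not well above background on either array.

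Probes of one gene did not always give one answer. Of the 22 members with more than 1 probe, 12 had at least 2 probes above background on both arrays, and their differences lay on opposite sides of 0 in 8, namely Cdk4, Cdk7, Cdk8, Cdk9, Cdk12, Cdk14, Cdkn1a and Mcm3. In 5 of the 12, Ccnd3, Cdk12, Cdk14, Cdkn1a and Mcm9, the probes differed by at least 2-fold in their difference. In 7 members, Ccnb1, Cdk1, Cdk14, Cdkn2a, E2f3, E2f7 and Mcm8, a probe with signal stood beside one not well above background on either array, so that Cdk14 is among the 5 and the 7. For Ccne1 and Cdkn2b both probes gave only lower bounds. Of the 92 probes, 1 of Cdk4, not its brightest, shared 20 bases with a probe of another gene.

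**Figure D4:**
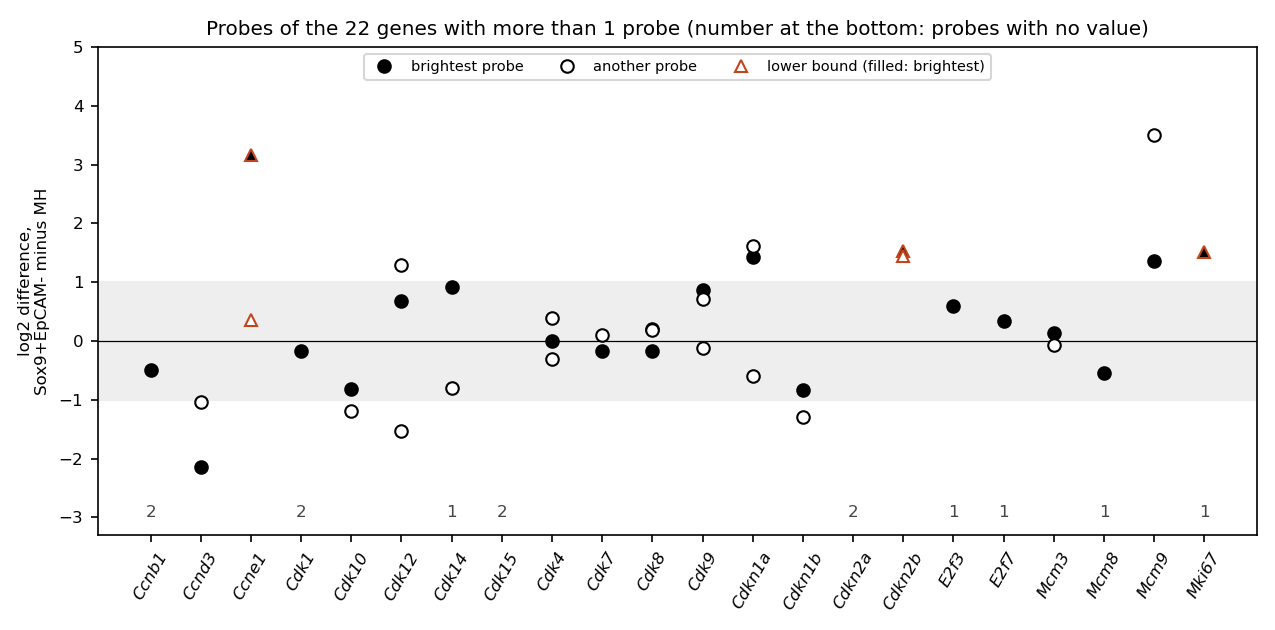
Log2 difference (y axis, Sox9+EpCAM- minus MH) of each probe of the 22 members with more than 1 probe, filled for the brightest probe, as triangles for lower bounds, and with the number of probes without a value at the bottom. The probes of Cdk12, Cdk14, Cdkn1a and Mcm9 lie far apart, while those of Mcm3 and Cdk7 lie together.

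For the rest of the pathway, 67 further cell cycle genes in 6 lists were read from their brightest probe. Their other probes were not compared, and the other settings were not applied to them. Of the 59 with signal, 15 were at least 2-fold higher (25.4%) and 13 at least 2-fold lower (22%), beside 14.2% and 16.7% of all genes, with a median log2 difference of 0.12 beside -0.04. At 4-fold, 6 were higher and 6 lower (10.2% each), beside 5.59% and 5.57%. Genes of origin licensing went in both directions. Cdt1, which loads the MCM ring, had 43.5 and 1110, 17.0-fold higher, and Gmnn, the inhibitor of CDT1, had 53.3 and 7.75, at least 4.34-fold lower. Dbf4, the activator of the CDC7 kinase, had 21.2 and 324, at least 7.78-fold higher, while Cdc7 itself was not well above background on either array (8.05 and 10.3). Of the GINS complex, which joins the MCM ring in the active helicase, Gins1 had 85.8 and 4.33, at least 6.99-fold lower, and Gins2 had 288 and 94.1, 4.58-fold lower. Gins3 (53200 and 58500, log2 -0.45) and Gins4 (735 and 1580, log2 0.52) did not reach 2-fold. The probe of Gins3 shares 20 bases with probes of other names in the design. Of the 14 genes of this list with signal, 4 were 2-fold or more higher and 4 lower (28.6% each, beside 14.2% and 16.7% of all genes).

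In the list of nucleotide supply and S phase, 2 of 10 genes were at least 2-fold higher and 4 lower, beside 14.2% and 16.7% of all genes, so that the higher count was near the share of all genes. Tk1, thymidine kinase, had 9070 and 1650, 8.23-fold lower, and Rrm2, a subunit of ribonucleotide reductase, had 61.6 and 5.22, at least 5.01-fold lower. Rb1, the retinoblastoma protein, had 309 and 78.6, 5.90-fold lower, and 2 of the 3 pocket proteins were at least 2-fold lower. In the mitosis list, 1 of 11 genes with signal was at least 2-fold higher and 1 lower (9.09% each, under both shares of all genes). None of the 7 measured on both arrays reached 4-fold, and of the 4 seen in Sox9+EpCAM- cells alone, Prc1 (at least 1.48-fold higher) and Foxm1 (at least 1.14-fold higher) had lower bounds and Ttk and Kif11 no fold. Of the regulators of CDK activity, 3 of 8 were 2-fold or more higher (37.5%) and 1 lower (12.5%), the latter near the 16.7% of all genes. The higher ones are Cks1b, Wee1 (at least 3.89-fold) and Pkmyt1 (3.37-fold). The lower one is Cks2, with 2440 and 1590, 2.30-fold lower. Cks1b, a subunit of CDK complexes, had 139 and 1320, 6.34-fold higher, on a probe that shares 20 bases with a probe of another name in the design.

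The checkpoint and p53 list had a median log2 difference of 0.74, beside -0.04 for all genes, with 5 of 13 genes at least 2-fold higher (38.5%) and 1 lower (7.69%), beside 14.2% and 16.7%. Gadd45a, a growth arrest gene, had 952 and 30800, 21.6-fold higher. Btg2, an antiproliferative gene, had 869 and 21200, 16.3-fold higher. Trp53, which encodes p53, had 433 and 3330, 5.13-fold higher. These stand beside the 10 immediate early genes, whose summed intensity was 22985 in MHs and 458750 in Sox9+EpCAM- cells.

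**Figure D5:**
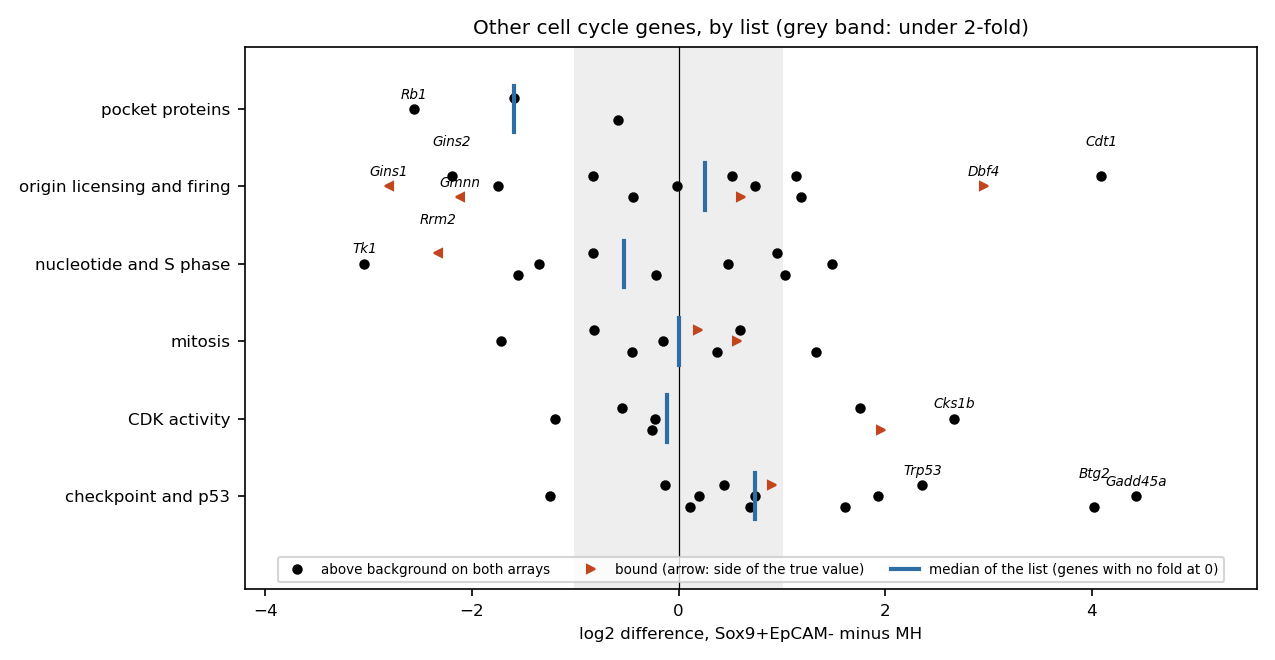
Log2 difference (x axis, Sox9+EpCAM- minus MH) of the further cell cycle genes by list, with arrowheads for bounds, a blue line at the median of each list and names for genes at least 4-fold different. Cdt1, Gadd45a and Btg2 lie at 4 or more to the right, and Tk1, Gins1 and Rb1 furthest to the left.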

How the data were processed

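RNA of 1 MH sample and 1 Sox9+EpCAM- sample was labelled with Cy3 and hybridised by a service provider, whose labelling protocol is undisclosed per the labels. The authors deposited for each array the processed spot intensity from Feature Extraction 10.7.3.1, background-subtracted and detrended but not normalized between arrays, with raw mean and background intensities and flags. They also deposited a table of ratio values, each the processed intensity over the median of its array (column medians 1.00).

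Intensities were divided by the 75th percentile of their array and taken to log2. Outlier spots on either array were dropped (1 member spot), and repeated spots averaged. With 1 array per group no test was run. At least 2-fold was used as the rule of size, and genes whose bound lay on the wrong side of 0 had no fold and entered medians as 0. All members are given by role, those at least 2-fold different, those with discordant probes and the brightest of each role in full. Other cell cycle genes are given mainly where at least 4-fold different. Members and lists were chosen with earlier results of these data known. Symbols are those of the design: all 62 are current in RefSeq, and all 85 member probes whose accession RefSeq holds had the same symbol. Probe coordinates are on mm9. Normexp correction used limma 3.58.1 in R 4.3.3 (offset 50), and the rest pandas 2.3.3 and numpy 2.4.6 under Python 3.11.15. The steps were tested on simulated data.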

Additional observations from a re-analysis of the deposited data

How the results depend on the processing

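The counts of 18 members higher and 6 lower by at least 2-fold were recomputed under 8 other settings. They ranged from 11 to 20 higher and from 4 to 8 lower, and the median log2 difference from -0.00 to 0.44. Without bounds, among genes above background on both arrays, 11 were higher. At 4-fold, 9 were higher and 2 lower. Of the 24 members at least 2-fold different, 16 were so the same way in every setting that gave a value (12 higher, 4 lower). The 8 that were not are Ccnb2, Cdk2, Cdk20, Cdkn1c, Cdkn2b, Mcm9, Mcm10 and Mki67. Of 383 single values, 16 moved by more than 1.5-fold, 12 of them with normexp correction, which adds 50 to every signal and so pulls dim probes together, and 4 with the median over probes. Many of the 383 could hardly move. Scaling to Gapdh, the deposited table and scaling by the median of probes seen on both arrays shift all genes nearly alike, by under 1.5-fold. Leaving out the bounds repeats the values above, and keeping outlier spots alters 1 member spot. The count of moved values therefore does not measure how stable the differences are. No value at least 2-fold different changed sign. Of the 25 members with a difference, or for Cdk6 a lower bound, under 2-fold, 11 lay on both sides of 0 over the settings, and 5 reached 2-fold in some setting (Aurka, Cdk9, Cdk10, Cdk14 and Cdkn1b). Scaling to Gapdh moved the median of all genes from -0.04 to 0.10 and the higher share of all genes at least 2-fold different from 45.9% to 60.2%, against 75% and 83.3% for the members. With the deposited table the median of all genes was -0.22 and that of the members 0.

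No paired analysis was possible because a group holds a single array. For the same reason no array could be left out, and no slide effect fitted. Signals not well above background could not be measured, which leaves 11 members without signal and 2 more, Cdkn2a and Top2a, without a fold. The dimmest signals that were well above background had 27.8 in MHs and 18.4 in Sox9+EpCAM- cells. These are no fixed limits, since Cdk19 with 31 in MHs was not well above background. The number of arrays limits every statement to these 2 samples.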

Other observations

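Several of the genes above are textbook targets of p53, and were grouped here after their values were seen. In Sox9+EpCAM- cells, Cdkn1a was 2.69-fold, Plk3 4.51-fold, Gadd45a 21.6-fold and Btg2 16.3-fold higher, and Plk2 at least 16.6-fold higher. Mdm2, the ubiquitin ligase of p53, had 215 intensity units in MHs and 1230 in Sox9+EpCAM- cells, 3.82-fold higher. Ccng1 (-0.47 on the log2 scale) and Sesn2 (0.20) did not reach 2-fold, and Sesn1 was at least 1.87-fold higher. Several of these genes are also known as early response genes, and the 10 immediate early markers were all at least 4-fold higher. The part of either response in these values was not tested.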
